A study of Homo sapiens with 12 samples.

Results

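The RNA levels of 10 stress regulators that act downstream of the ER kinase PERK were followed in human embryonic kidney cells that overexpress the oxidase Ero1α (gene ERO1A). The genes are DDIT3, ATF4, ATF3, ATF5, CEBPB, CEBPG, TRIB3, CHAC1, PPP1R15A and SESN2. They were chosen by name as the transcription factors and feedback genes of this pathway, and each was read from its brightest probe set that GEO's platform annotation gives a single gene symbol. All 10 were found among 18404 measured genes.

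Cells of the HEK-293 Flp-In T-REx line, which takes a transgene at 1 genomic site behind a doxycycline-controlled promoter, had been stably transfected with Ero1α-WT (the WT line) or with Ero1α-C104A/C131A (the C104A/C131A line). In the latter, cysteines of the regulatory disulfides are alanines, which is known to deregulate the oxidase. Both lines were sampled without induction and after 24 h of doxycycline, which gave 4 groups of 3 biological replicates named A, B and C. Every group was kept under hygromycin B and blasticidin selection. Each construct is represented by 1 line and the labels do not say whether a line is a clone, so construct and line cannot be told apart. Doxycycline-treated cells without a transgene were not analysed here, so drug and transgene cannot be told apart either.

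When unfolded proteins gather in the ER, PERK phosphorylates the initiation factor eIF2α. General translation then falls, while the mRNA of ATF4 is translated more. ATF4, paired with C/EBP proteins, turns on DDIT3, which encodes CHOP, a factor known for driving cell death when stress persists and for raising ERO1A itself. The arrays measured RNA only, so the phosphorylation of eIF2α and the amount of ATF4 protein were not measured.

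Promoter windows are shown first, searched for the letters that ATF4 and the ER stress factors are known to read. Most of the 10 genes held neither in exact form. RefSeq promoter windows (GRCh38.p14, 250 bases before to 50 after an annotated start) matched all 10 genes. The core TGATGNAA of the C/EBP-ATF response element, searched on both strands, was found in windows of 3 of them, ATF3, CEBPG and CHAC1, and in 4.46% of the 27305 genes with such a window. In the stretches below, written 5′ to 3′ on the strand of the gene, capitals mark this core. Its first base lies at -191 from the annotated start for ATF3, at -209 for CHAC1, in reverse orientation, and at -42 for CEBPG from a start within the gene.
ATF3, chr1:212565186-212565253, plus strand: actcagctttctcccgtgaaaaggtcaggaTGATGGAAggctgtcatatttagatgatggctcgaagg
CHAC1, chr15:40953232-40953299, plus strand: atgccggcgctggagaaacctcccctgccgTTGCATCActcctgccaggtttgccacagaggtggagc
CEBPG, chr19:33374060-33374089, plus strand: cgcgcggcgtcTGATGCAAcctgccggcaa

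The ER stress element, which ATF6 and XBP1 read, joins CCAAT to CCACG across a fixed gap of 9 bases. It was found on either strand in the windows of 0 of the 10 genes and of 0.0916% of all genes. HSPA5, the gene of the chaperone BiP, has it and is shown as an exact match, with the whole element in capitals. With up to 1 of the 10 fixed letters changed, a search added after the DDIT3 stretch was seen, DDIT3 was the 1 member with a match, against 1.89% of all genes. It matched once in each orientation, with G19T on its own strand and C15G on the other (positions counted from 1 at the element's 5′ end, the element's letter first). Since the stretch was known when this search was set, the share of 1.89% cannot tell how unusual the DDIT3 match is. The DDIT3 stretch is shown because DDIT3 was the member that responded to induction. Its capitals mark the CCAAT letters, once in each orientation, which 39.7% of all genes have in their windows. The CCACG letters occurred in 6 of the 10 genes and in 42.1% of all genes. These matches describe the letters of a short window, and nothing was measured on them.
DDIT3, chr12:57520556-57520644, minus strand: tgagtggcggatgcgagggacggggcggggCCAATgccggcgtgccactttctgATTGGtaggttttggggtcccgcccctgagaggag
HSPA5, chr9:125241361-125241439, minus strand: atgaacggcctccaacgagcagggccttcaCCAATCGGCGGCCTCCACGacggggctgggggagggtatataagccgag

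The levels are log2 RMA values, on which 1 unit is a doubling, and they were compared within a gene only. The arrays had medians of 6.36 to 6.43, and those of a group correlated with r of 0.992 to 0.996 across probe sets. The ERO1A probe set, which reads endogenous and transgene RNA together, had a mean of 10.55 uninduced and 12.68 induced in the WT line, and of 10.12 and 12.54 in the C104A/C131A line, as the labels would have it. Of 9 measured markers of HEK-293 cells, 8 had a mean level above 6.39, the median of all values, against 1 of 6 fibroblast markers (COL1A1), 0 of 5 leukocyte markers and 0 of 6 endothelial markers.

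DDIT3, the gene of CHOP, lies at chr12:57516588-57520517 (GRCh38.p14). Uninduced WT arrays read 7.20, 7.21 and 7.20 (replicates A, B and C), and induced WT arrays read 7.70, 7.38 and 7.50. Uninduced C104A/C131A arrays read 7.74, 7.67 and 7.81, and induced ones 8.30, 8.35 and 8.14. The groups thus rose in the order uninduced WT, induced WT, uninduced C104A/C131A, induced C104A/C131A, and the middle pair overlapped. The 3 induced C104A/C131A arrays lay above the other 9.

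**Figure D1:**
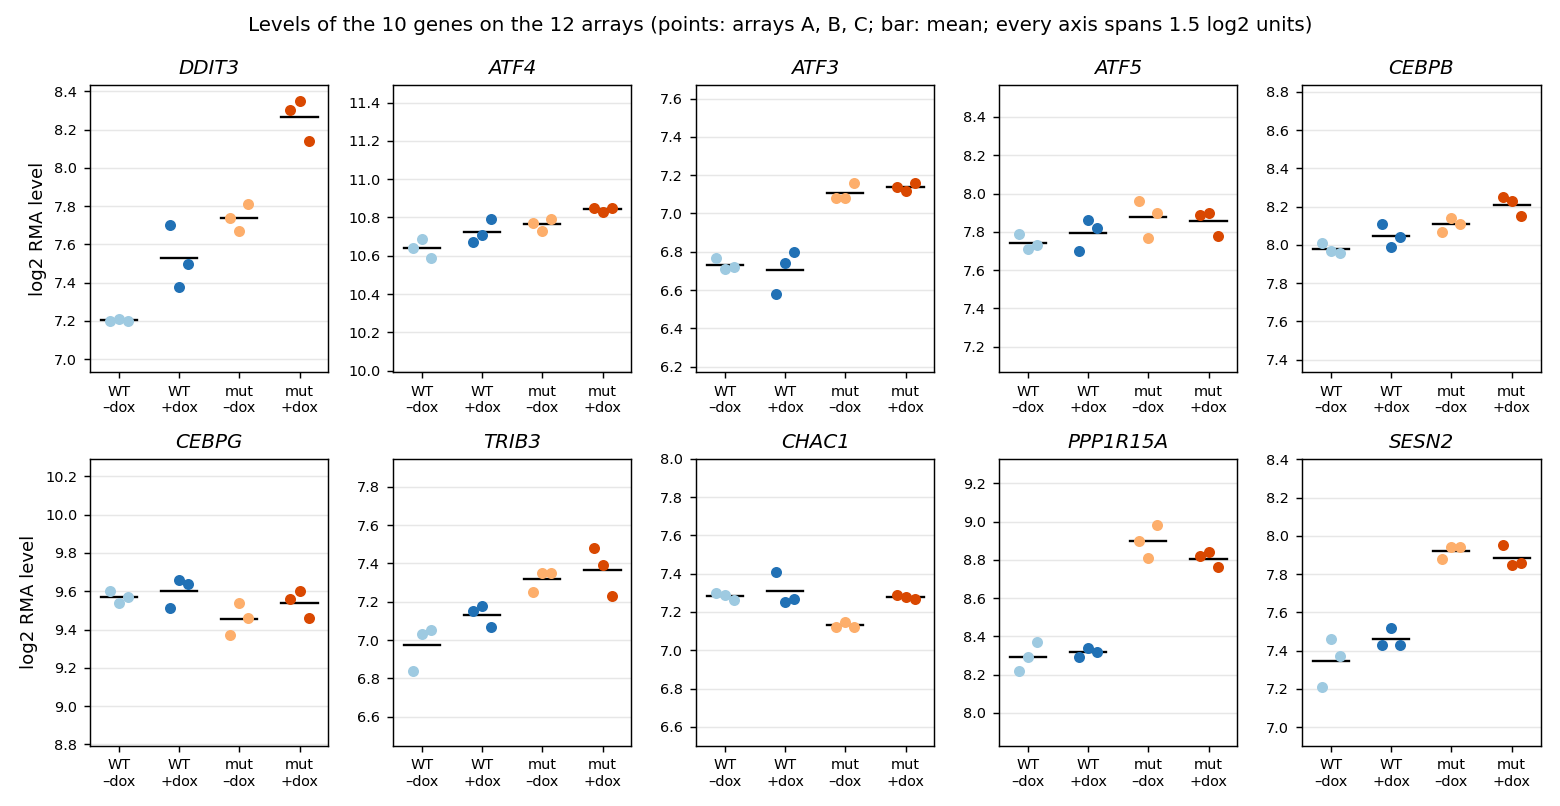
The log2 RMA level of each of the 10 genes on the 12 arrays, by group (–dox, uninduced; +dox, induced; mut, C104A/C131A line); points are arrays, bars are group means and every axis spans 1.5 log2 units. The induced DDIT3 arrays lie above the uninduced ones in each line, a change that passed the test in the C104A/C131A line alone, and PPP1R15A, SESN2, ATF3 and TRIB3 have all arrays of the C104A/C131A line above those of the WT line.

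The first comparison asked which of these regulators responded to the deregulated oxidase. In the C104A/C131A line DDIT3 rose 1.44-fold (log2 change 0.52 ± 0.08, SE, 95% interval 0.35 to 0.70, adjusted p = 0.0156, limma). It ranked 45th by size of change among the 18404 genes. It was the 1 member of 10 that passed the adjusted p of 0.05, against 0.321% of all genes that rose. The call did not hold in every fit: it was lost without C104A/C131A uninduced A (adjusted p = 0.0734), uninduced B (0.104), induced A (0.0815) or induced B (0.0882). It was also lost with an ordinary analysis of variance of the two-way layout that the design text describes (0.0634). The log2 change lay between 0.48 and 0.53 in those fits. That analysis of variance tested this line's contrast without limma's moderated variance. Under it, the DDIT3 response averaged over the lines kept its call.

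The other 9 genes did not pass in this line, and their log2 changes lay between -0.09 and 0.15. CHAC1, whose enzyme breaks down glutathione, came closest. It read 7.12, 7.15 and 7.12 uninduced and 7.29, 7.28 and 7.27 induced (log2 change 0.15 ± 0.05, unadjusted p = 0.0148, adjusted p = 0.695). The CHAC1 groups did not overlap, but the step was small, 1.11-fold. Groups were apart, with induction higher, for 4 of the 10 genes (DDIT3, ATF4, CEBPB and CHAC1), against 4.51% of all genes. ATF4 read 10.77, 10.73 and 10.79 uninduced and 10.85, 10.83 and 10.85 induced (1.06-fold, 95% interval -0.03 to 0.19 on the log2 scale). On a second, dimmer ATF4 probe set the same groups overlapped, with 9.67, 9.86 and 9.95 uninduced and 9.77, 9.94 and 9.94 induced. CEBPB, a C/EBP partner of ATF4 and CHOP, was at 1.07-fold (adjusted p = 0.869). CEBPG was at 1.06-fold, ATF3 at 1.03-fold and ATF5 at 0.986-fold.

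Among the feedback genes of the C104A/C131A line the changes were near 0. PPP1R15A encodes GADD34, which brings a phosphatase to eIF2α and so ends the translational block. It read 8.90, 8.81 and 8.98 uninduced and 8.82, 8.84 and 8.76 induced (0.942-fold, adjusted p = 0.902). SESN2, for Sestrin2, which restrains mTORC1, was at 0.976-fold, and TRIB3, for a pseudokinase that binds ATF4 and AKT, at 1.04-fold. The groups of all 3 genes overlapped. The intervals reach at most 0.22 for TRIB3, 0.11 for SESN2 and 0.04 for PPP1R15A, so a rise as large as that of DDIT3 lies outside them.

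The same question was asked of wild-type Ero1α. In the WT line 0 of the 10 genes passed (limma), against 0.114% of all genes that rose. At an unadjusted p of 0.05 DDIT3 alone passed, and the two-way analysis of variance also gave 0. DDIT3 was at 1.25-fold (log2 change 0.32 ± 0.08, 95% interval 0.14 to 0.50, adjusted p = 0.567). The groups were apart, with replicate A the highest of the induced arrays. TRIB3 was the other gene whose groups were apart, with 6.84, 7.03 and 7.05 uninduced and 7.15, 7.18 and 7.07 induced (1.12-fold, adjusted p = 0.996). Thus 2 of 10 genes had the induced group higher and apart, against 5.24% of all genes. ATF4 was at 1.06-fold, SESN2 at 1.08-fold, CEBPB at 1.05-fold, ATF5 at 1.03-fold, CEBPG and CHAC1 at 1.02-fold, PPP1R15A at 1.01-fold and ATF3 at 0.981-fold.

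**Figure D2:**
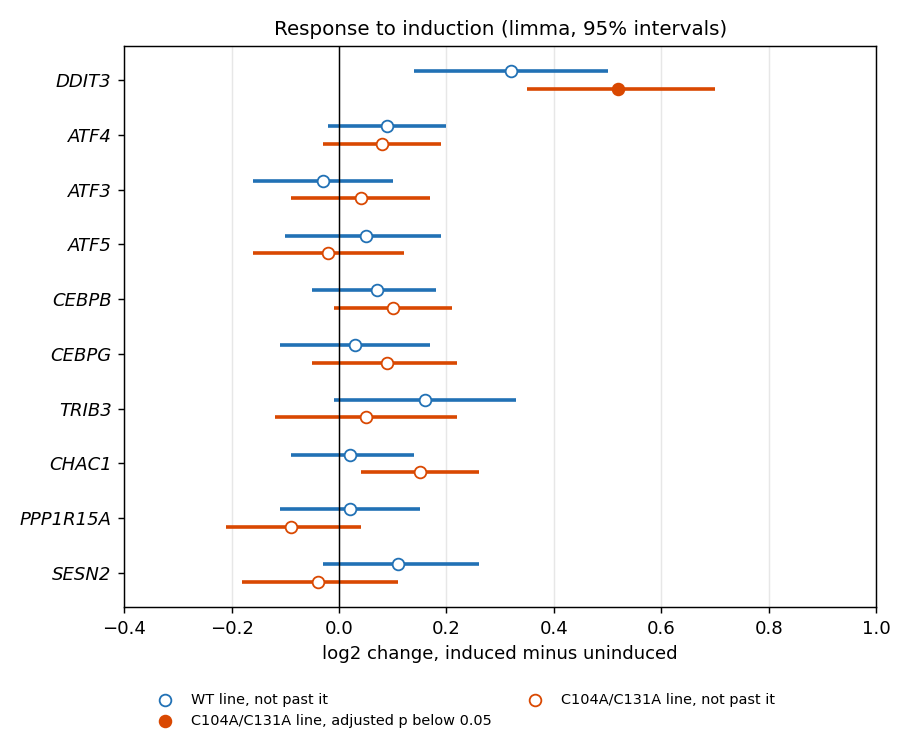
Log2 change on induction of each gene in the WT and the C104A/C131A line, with 95% intervals of the limma fit; filled points passed an adjusted p of 0.05. DDIT3 in the C104A/C131A line is the single filled point, at 0.52, and the intervals of the other 9 genes in both lines end at or below 0.33.

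Whether a gene responded more in the line of the deregulated oxidase was tested with the interaction of line and induction. The ERO1A signal itself rose 5.38-fold in the C104A/C131A line and 4.37-fold in the WT line. The C104A/C131A line started lower (log2 difference between the uninduced lines -0.43, adjusted p = 0.000454, limma). Its induced level was not higher than that of the WT line (log2 difference -0.13, adjusted p = 0.178, limma). The ERO1A interaction was 0.30 ± 0.09 (limma, unadjusted p = 0.00652, adjusted p = 0.982). The part of this in the values of the 10 genes was not tested. Among the 10 genes DDIT3 had the largest positive value, 0.20 ± 0.11 (95% interval -0.05 to 0.45, adjusted p = 0.982), and SESN2 the largest negative one, -0.15 (95% interval -0.35 to 0.06). The others were at 0.13 for CHAC1, 0.06 for ATF3, 0.05 for CEBPG, 0.03 for CEBPB, -0.01 for ATF4, -0.07 for ATF5 and -0.11 for both TRIB3 and PPP1R15A. None of the 10 passed by limma, and 0 did at an unadjusted p of 0.05 or by the analysis of variance. Over all genes 0% passed by limma. The intervals do not show that the lines respond alike: for DDIT3 they allow a response larger by up to 0.45 in the C104A/C131A line. The responses averaged over the lines gave 1 call of 10, again DDIT3 (1.34-fold, log2 change 0.42 ± 0.06, adjusted p = 0.00459), against 0.473% of all genes. This call held in each of the fits that left out 1 array. ATF4, CEBPB and CHAC1 each had an averaged change of 0.08 to 0.09 with unadjusted p of 0.0395, 0.042 and 0.0371, and an adjusted p of 0.873. TRIB3 was at 0.10, CEBPG at 0.06, SESN2 at 0.04, ATF5 at 0.01, ATF3 at 0.00 and PPP1R15A at -0.03.

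The genes around the pathway place the DDIT3 response. Upstream, the PERK gene EIF2AK3 read 7.13, 7.22 and 7.19 uninduced and 7.51, 7.66 and 7.57 induced in the C104A/C131A line (1.32-fold, adjusted p = 0.0596), and it rose when the lines were averaged (1.27-fold, adjusted p = 0.012). DNAJC3, which encodes the PERK inhibitor P58IPK and is also an ER co-chaperone, rose 1.83-fold in the C104A/C131A line. It was the 1 gene of 20 on the list of eIF2α kinases, phosphatases and exchange factor to pass there, and none of the 20 passed in the WT line by limma (2 at an unadjusted p of 0.05).

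Of 47 other ATF4 targets, 2 rose in the C104A/C131A line: the cystine transporter gene SLC7A11 (1.61-fold, adjusted p = 0.00524) and the neutral amino acid transporter gene SLC1A4 (1.40-fold, adjusted p = 0.00182). The median log2 change of the list was 0.08, against -0.01 over all genes. At an unadjusted p of 0.05 by limma 13 of the 47 passed, against 1082 of 18404 genes. Positive changes numbered 38 of 47, against 8372 over all genes. In the WT line SLC1A4 alone passed (1.27-fold, adjusted p = 0.0491), with a list median of 0.03 against 0.00. There, 8 of the 47 passed at an unadjusted p of 0.05, against 820 of 18404 genes, and 37 were positive, against 9292. Averaged over the lines 3 of the 47 rose by limma: SLC7A11, SLC1A4 and SLC6A9 (1.22-fold, adjusted p = 0.00754). ASNS, for asparagine synthetase, was at 1.07-fold and 1.08-fold in the C104A/C131A and WT lines and did not pass.

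Downstream, 0 of 19 death regulators linked to CHOP passed in either line by limma (1 in the C104A/C131A line and 0 in the WT line at an unadjusted p of 0.05). Their medians were -0.04 and -0.01. TNFRSF10B, the death receptor DR5 and a known CHOP target, was at 0.962-fold in the C104A/C131A line and 0.987-fold in the WT line. Nor did the 6 paralogs of the feedback genes (TRIB1, TRIB2, CHAC2, PPP1R15B, SESN1, SESN3) pass in either line (0 and 1 at an unadjusted p of 0.05).

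Set beside these, 17 of 19 measured genes of the ATF6 and XBP1 branches rose in the C104A/C131A line (median log2 change 0.69), as did 10 of 19 in the WT line (median 0.37). This list holds ER chaperones, genes of ER-associated degradation and translocation, DNAJC3, which the eIF2α list holds too, and XBP1, which is also counted among the bZIP factors. In the C104A/C131A line 14 of the 19 had a larger log2 change than DDIT3, among them HSPA5 (1.14) and HERPUD1 (1.36), and 5 a smaller one (CALR, SYVN1, XBP1, EDEM1 and SEC61B, at 0.26 to 0.41). Of 43 measured bZIP factors outside the 10 genes, CREB3L2 and XBP1, both factors of ER secretory capacity, rose in each line. CREB3L2 rose 1.41-fold in the C104A/C131A line and 1.40-fold in the WT line. Of 18 NRF2 targets, SLC7A11, also on the ATF4 list, and UGDH rose in the C104A/C131A line and none in the WT line by limma (2 at an unadjusted p of 0.05). None of 18 p53 targets or of 19 immediate early genes passed in either line by limma (at an unadjusted p of 0.05, 2 and 2 in the C104A/C131A line and 0 and 1 in the WT line).

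The lines themselves were then compared, since some of the 10 genes differed before any induction. Without doxycycline 5 genes were higher in the C104A/C131A line and none lower, against 10.8% and 10.5% of all genes. They were PPP1R15A (1.52-fold, log2 difference 0.60 ± 0.06, adjusted p = 2.19e-05), SESN2 (1.49-fold, 0.57 ± 0.07, adjusted p = 7.42e-05), DDIT3 (1.45-fold, 0.54 ± 0.08, adjusted p = 0.00051), ATF3 (1.29-fold, 0.37 ± 0.06, adjusted p = 0.000806) and TRIB3 (1.27-fold, 0.34 ± 0.08, adjusted p = 0.00774). So 3 of the 5 code for feedback proteins and 2 for transcription factors. All 5 passed in each fit that left out 1 array.

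The arrays show the steps directly. PPP1R15A lies at chr19:48872421-48876058, SESN2 at chr1:28259518-28282491 and ATF3 at chr1:212565407-212620777 (GRCh38.p14). PPP1R15A read 8.22, 8.29 and 8.37 in the uninduced WT line and 8.29, 8.34 and 8.32 in the induced one, against 8.76 to 8.98 on the 6 arrays of the C104A/C131A line. SESN2 read 7.21, 7.46 and 7.37 uninduced and 7.43, 7.52 and 7.43 induced in the WT line, against 7.85 to 7.95 in the C104A/C131A line. ATF3, an early stress factor that acts mostly as a repressor, read 6.58 to 6.80 on the WT line's arrays and 7.08 to 7.16 on those of the C104A/C131A line. TRIB3 read 6.84 to 7.18 and 7.23 to 7.48. For these 4 genes all 6 arrays of one line lay above all 6 of the other, whatever the induction.

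CHAC1 went the other way, with 7.30, 7.29 and 7.26 in the uninduced WT line and 7.12, 7.15 and 7.12 in the uninduced C104A/C131A line (0.899-fold, adjusted p = 0.059). It passed when dim genes were left out (adjusted p = 0.025) and by the analysis of variance (0.0259). After induction the lines overlapped (0.981-fold, adjusted p = 0.765). CEBPG, the C/EBP protein that lacks an activation domain, had a difference of -0.11 uninduced and -0.06 induced, ATF5 of 0.13 and 0.06, and ATF4 of 0.13 and 0.12, and none of these passed. Nor did CEBPB uninduced (0.13, adjusted p = 0.108). ATF4 did with a trended robust prior, uninduced (adjusted p = 0.0239) and induced (0.0343), and by the analysis of variance (0.0387 and 0.049). The second ATF4 probe set overlapped between the uninduced lines, with 9.34, 9.73 and 9.88 in the WT line and 9.67, 9.86 and 9.95 in the C104A/C131A line. It was apart between the induced lines, with 9.67, 9.72 and 9.74 against 9.77, 9.94 and 9.94. Groups were apart, with the C104A/C131A line higher, for 7 of 10 genes uninduced and for 7 of 10 induced, against 18.4% and 16.4% of all genes.

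With both transgenes induced, 5 genes were again higher in the C104A/C131A line and none lower, against 10.8% and 10.9% of all genes. DDIT3 differed most (1.67-fold, log2 difference 0.74 ± 0.08, adjusted p = 5.12e-05), followed by PPP1R15A (1.41-fold, adjusted p = 9.32e-05), ATF3 (1.35-fold, adjusted p = 0.000268) and SESN2 (1.34-fold, adjusted p = 0.000637). CEBPB passed narrowly (1.12-fold, adjusted p = 0.0434). It did not without WT induced B (0.16) or C (0.0946), nor without C104A/C131A induced A (0.128) or B (0.108), nor with the replicate block (0.055) or the compared arrays alone (0.124). TRIB3 was at 1.17-fold and missed the threshold (adjusted p = 0.0514). It passed without C104A/C131A induced C (adjusted p = 0.0184), with centred arrays (0.0317), without dim genes (0.022) and with a trended robust prior (0.0401). The uninduced and induced comparisons use different arrays.

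**Figure D3:**
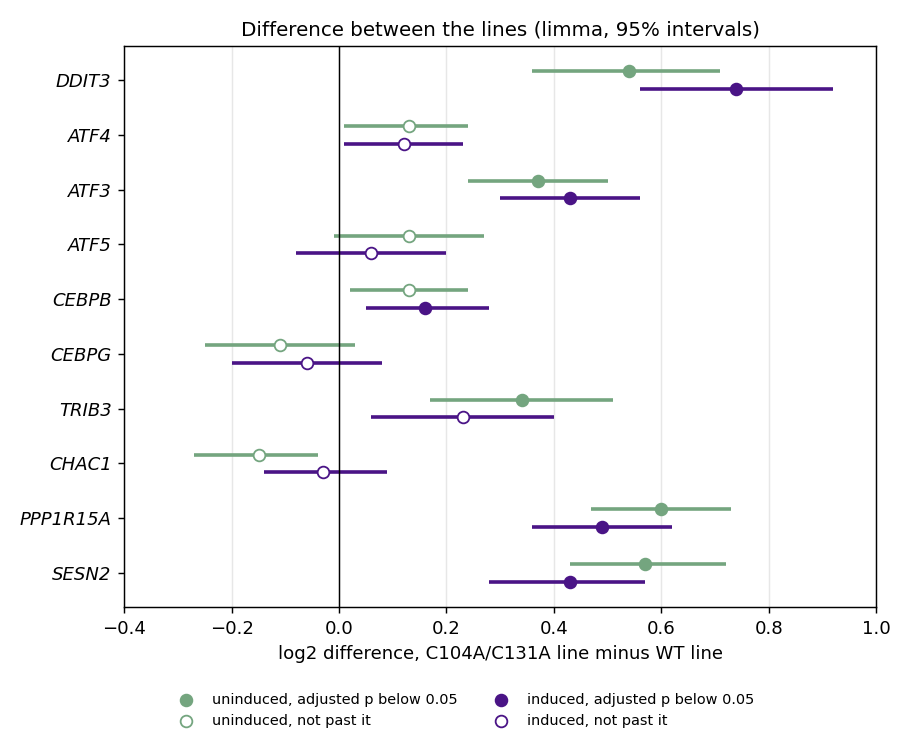
Log2 difference between the lines (C104A/C131A minus WT) for each gene, uninduced and induced, with 95% intervals of the limma fit; filled points passed an adjusted p of 0.05. PPP1R15A, SESN2, DDIT3 and ATF3 are filled in both states, TRIB3 in the uninduced and CEBPB in the induced state alone.

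Other values moved with the line. Between the uninduced lines 10.8% of all genes were higher and 10.5% lower in the C104A/C131A line. List counts near these shares are no more than those of genes at large. Of 19 immediate early genes, the class of fast responders to which ATF3 is often counted, 14 were higher in the uninduced C104A/C131A line and none lower (median log2 difference 0.39, against -0.01 over all genes). Of 47 other ATF4 targets 11 were higher and 6 lower (median 0.02), with PYCR1 of proline synthesis at 3.04-fold and SLC1A4 at 0.623-fold. Among 19 death regulators 3 were higher (CASP9, TNFRSF10B and DDIT4, at 1.32, 1.25 and 1.23-fold) and 1 was lower (CAMK2G). Among the 20 genes of eIF2α control 2 were higher and 5 lower. The lower ones included DNAJC3 at 0.636-fold, EIF2AK3 at 0.835-fold and the phosphatase genes PPP1CB at 0.751-fold and PPP1CA at 0.84-fold. Among 43 other bZIP factors 8 were higher and 5 lower, and CEBPE, a C/EBP factor of myeloid cells, was at 14.6-fold. Of 18 p53 targets 4 were higher and 2 lower, and of 18 NRF2 targets 5 were higher and 1 lower. The 19 genes of the ATF6 and XBP1 branches had 1 higher, HYOU1 at 1.63-fold, and 4 lower. Between the induced lines 9 of these 19 genes were higher and 1 was lower (median 0.21, against -0.04 over all genes), with HYOU1 at 2.21-fold. The median log2 difference of all genes on each chromosome that carries 1 of the 10 genes lay between -0.05 and 0.02. The summed level of the 9 HEK-293 markers was 13.22 to 13.26 on the WT line's arrays and 13.43 to 13.49 on those of the C104A/C131A line. The part of any of these in the values of the 10 genes was not tested.

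The genes whose levels followed DDIT3 most closely over the 12 arrays were YIPF2 (Pearson r = 0.975), HYOU1 (0.967), an ER chaperone, DDOST (0.965), of the oligosaccharyltransferase, TRIM5 (0.962) and SLC1A5 (0.958), an amino acid transporter. Among the other 9 members r was 0.953 for CEBPB, 0.856 for ATF4, 0.833 for TRIB3, 0.787 for SESN2, 0.767 for ATF3, 0.756 for PPP1R15A, 0.50 for ATF5, -0.0394 for CHAC1 and -0.263 for CEBPG. The 12 arrays fall into 4 groups, so these values describe mostly the order of the group means.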

How the data were processed

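Total RNA (250 ng per sample) from each culture was labelled by a whole-transcript method for 1 Affymetrix array, per the labels' protocols. The deposited values are log2 levels made by the authors with RMA, per the submitters' processing notes; the RMA software is not given in the sources used here, and the log2 base was read from the range, 1.05 to 14.10. Quantile normalization, a step of RMA, would hide a shift of most genes. The number of arrays limits the precision, and the p-values measure the spread between these cultures.

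Of 32321 probe sets, 19158 had 1 gene symbol, 1388 several and 11775 none. The brightest probe set was kept for each of 18404 genes; symbols were updated by Entrez ID (18376 matched GRCh38.p14 RefSeq). A group-means model over 12 arrays (limma 3.58.1, R 4.3.3) was used, with two-sided tests and Benjamini-Hochberg adjustment over all genes at 0.05. The steps were tested on simulated data. The members and lists were chosen with earlier results of these data known. The rule named all 10 members in every comparison and, of each other list, up to 4 genes past the threshold with the largest changes, besides genes set beside a member. ASNS, TNFRSF10B in the induction comparisons, and the genes with a smaller change than DDIT3 were named outside it, after their values were seen. All 10 members have a mean above 6.39, the median over all probe sets. The array medians of the 18404 genes tested were higher, at 6.99 to 7.04. ATF3 lay below these with a mean of 6.92, and TRIB3 (7.2) and CHAC1 (7.25) lay little above them.

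Same-letter arrays of the WT line deviated together from their group means (r of 0.391, 0.139 and 0.246). In the C104A/C131A line r was 0.117, -0.143 and -0.0192. The group-means model did not pair arrays by letter in either line, so its tests of the WT line ignore any such pairing. The letters were used in the replicate block alone, which is among the alternatives below. The labels say nothing of days or batches. A planned protein comparison was not made. Alternatives were a replicate block, centred arrays, dim genes left out, the mean of probe sets, a trended robust prior, an ordinary two-way analysis of variance, the compared arrays alone, and leaving out each array. The analysis of variance tested the same contrasts of group means with each gene's own residual variance in place of limma's moderated one. Figures were drawn with matplotlib 3.10.9.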

Additional observations from a re-analysis of the deposited data

How the results depend on the processing

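The line differences of DDIT3, ATF3, PPP1R15A and SESN2 kept their direction and their call in both states under every alternative run, as did TRIB3 uninduced and DDIT3 averaged over the lines. With the replicate block the members called numbered 0 in the WT line, 1 in the C104A/C131A line and 5 between uninduced lines as in the fit without it, and 4 between induced lines, where CEBPB was lost (adjusted p = 0.055). The induction call of DDIT3 in the C104A/C131A line was lost with the two-way analysis of variance (0 members) and with the compared arrays alone (0 members, adjusted p = 0.0779). Leaving out 1 array gave 0 to 1 members. Between uninduced lines the analysis of variance called 8 members, adding ATF4, CEBPB and CHAC1. Its log2 differences are those of the limma fit, and only each gene's variance and degrees of freedom are set otherwise. Genes past the threshold in the C104A/C131A line numbered 60, but 91 without dim genes, 105 with the trended robust prior, 20 with the compared arrays alone and 36 to 44 without 1 array. In the WT line they numbered 21, but 43 with the trended prior, 1 with the compared arrays alone and 9 to 16 without 1 array. For the difference of the responses they numbered 0, but 7 without dim genes and 9 with the trended prior, none of them a member.

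Values near 0 changed sign. Centring the arrays turned the difference of the responses of ATF4 from -0.01 to 0.01. Leaving out 1 array gave -0.04 to 0.03 for that value. The same gave, in the WT line, -0.07 to 0.04 for ATF3, -0.03 to 0.06 for CHAC1 and -0.02 to 0.06 for PPP1R15A. In the C104A/C131A line it gave -0.07 to 0.02 for ATF5 and -0.01 to 0.12 for TRIB3. For averaged induction it gave -0.02 to 0.04 for ATF3 and -0.01 to 0.03 for ATF5, and for the induced lines -0.06 to 0.02 for CHAC1. None of these values passed the threshold in any of these fits.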

Other observations

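Within groups, the 10 genes did not all vary together. WT induced A had the highest level of its group for DDIT3 (7.70), CEBPB (8.11) and CHAC1 (7.41) and the lowest for ATF4 (10.67), ATF3 (6.58), ATF5 (7.70), CEBPG (9.51) and PPP1R15A (8.29). C104A/C131A induced C had the lowest level of its group for DDIT3 (8.14), CEBPB (8.15), TRIB3 (7.23), CHAC1 (7.27), PPP1R15A (8.76), ATF5 (7.78) and CEBPG (9.46), and the highest for ATF3 (7.16). Over the deviations of the 12 arrays from their group means, the Pearson r with DDIT3 was 0.722 for CHAC1, 0.716 for CEBPB, -0.531 for ATF3 and -0.16 for ATF4. The genes with the highest such r were DHRS1 (0.943), AP1B1 (0.943), C1R (0.937), GLRX5 (0.929) and BOP1 (0.92). These were found by searching all genes over 12 arrays and are given as a description.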
